A study of Mus musculus with 16 samples.

Results

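Mouse cells that lack Dicer and were given human Dicer with the change D1320A in the RNase IIIA domain were compared with the same cells given unchanged human Dicer. The labels place 4 of the 16 small RNA libraries of the series in these 2 groups, 2 libraries in each, and these 4 were chosen by label alone. All 4 came from Dicer -/- mesenchymal stem cells (MSCs) of strain C57BL/6, transfected with human Dicer (labelled hsDicer) or with its D1320A form. Dicer -/- cells that received mCherry, a fluorescent protein, serve as the background below and are called KO. Dicer f/f cells that received mCherry are called WT and set the usual ends of each miRNA, and libraries of D1709A, the matching change in the RNase IIIB domain, are named at a few values. Small RNA of 15 to 50 nt was cut from a gel and sequenced. The labels do not say that replicates are separate cultures, so a p-value measures the spread between these libraries, which may be technical.

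Dicer cuts the hairpin of a miRNA precursor near its loop and frees a duplex of the 5p and 3p arms. It holds a pair of RNase III domains that face each other. The IIIA domain cuts the strand that carries the 3p arm and the IIIB domain cuts the strand that carries the 5p arm. With only the IIIB cut, the 5p arm comes free while the loop stays joined to the 3p arm. Which arm a cell keeps as the mature miRNA differs from hairpin to hairpin, so the arms of each hairpin were counted separately.

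The sequences that carry the result are those of the hairpin with the most joined reads, Mir31, and of the hairpin with the most abundant 3p arm, Mir22. Mir31 lies on the minus strand of chromosome 4, from 88910557 to 88910662, in an exon of the lincRNA AL805899.1. Mir22 lies on the plus strand of chromosome 11, from 75463716 to 75463810, in an exon of its host transcript Mir22hg and of the protein-coding gene Tlcd2. Coordinates are on GRCm38. In the RefSeq hairpins (GRCm38.p6) the 5p and then the 3p arm are in capitals and the loop stands between them.
Mir31 hairpin: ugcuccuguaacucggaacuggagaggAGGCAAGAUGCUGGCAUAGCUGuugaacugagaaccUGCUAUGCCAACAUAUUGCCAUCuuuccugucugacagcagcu
Mir22 hairpin: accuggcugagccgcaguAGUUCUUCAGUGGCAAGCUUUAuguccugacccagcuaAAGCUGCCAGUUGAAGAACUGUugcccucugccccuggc

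The most abundant joined reads of 4 hairpins, as sequenced from cells with D1320A, show the loop in lower case and the 3p arm in capitals.
Mir31 joined read: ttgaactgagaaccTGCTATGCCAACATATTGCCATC
Mir30a joined read: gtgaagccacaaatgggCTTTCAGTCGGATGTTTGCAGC
Mir140 joined read: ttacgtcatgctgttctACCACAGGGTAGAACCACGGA
Mir22 joined read: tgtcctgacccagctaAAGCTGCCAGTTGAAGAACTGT
The Mir31 read was counted 389725 times over both D1320A libraries, and it runs from the first base of the loop to the last base of miR-31-3p with no base missing. The Mir22 read was counted 7257 times and ends at the last base of miR-22-3p.

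The 3p arms with an adjusted p under 0.05 are shown with their seeds, bases 2 to 8, in capitals, since a seed sets which mRNAs a miRNA pairs with. Those of miR-378a and miR-143 are named only.
miR-22-3p: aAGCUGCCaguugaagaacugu
miR-29b-3p: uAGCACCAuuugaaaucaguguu
miR-29a-3p: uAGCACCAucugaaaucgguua
miR-24-3p: uGGCUCAGuucagcaggaacag
miR-27b-3p: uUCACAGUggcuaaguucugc
miR-423-3p: aGCUCGGUcugaggccccucagu
miR-214-3p: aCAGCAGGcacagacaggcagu
miR-140-3p: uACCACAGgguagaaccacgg
miR-29a-3p and miR-29b-3p share their seed, AGCACCA, and the other 6 shown each have their own. For Mir140 the usual 3p start in WT lies 1 nt after the RefSeq start and for Mir214 1 nt before it. The seed of the main WT reads of miR-140-3p and miR-214-3p is thus shifted by 1 nt from the capitals shown. The hsDicer libraries differed for Mir140. Cover over the RefSeq first base and the next base was 1.04 and 1288 CPM in replicate 1. In replicate 2 it was 224.7 and 343.1 CPM, so most reads there began at the RefSeq base. One 5p arm passed as well.
miR-21a-5p: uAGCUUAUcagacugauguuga

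The 4 libraries held 14415661 and 18778950 reads with an insert of at least 15 nt for hsDicer and 15104136 and 12176208 for D1320A. Pairs of values are given as replicate 1 and then replicate 2 throughout, and levels are counts per 1000000 such reads (CPM). Replicate 1 was read to 41 nt and replicate 2 to 51 nt, so a longer insert was not seen whole. Products of the adapters took 1.74% and 5.38% of the hsDicer reads against 22.5% and 10.6% of the D1320A reads. Their part in the levels was not tested beyond a library size without them, under which the count of arms called stayed within 1.5 times. The hsDicer replicate 1 library stands apart. Of 86 arms with 100 CPM or more in both WT libraries, 10 had 3 reads or fewer in it, against none in hsDicer replicate 2, and of 577 arms counted 468 were under 1 CPM in it, where hsDicer replicate 2 had 213 such arms. Results are therefore given per library, and those that need a level with hsDicer also for arms with 10 CPM or more in both hsDicer libraries. Of the markers of other cell types, the liver miRNA miR-122 had no read in the 4 libraries. Those of pluripotent cells, neurons and muscle summed to at most 18.2, 25.9 and 43.8 CPM in any of them. Blood miRNAs summed to 1958 and 39.0 CPM with hsDicer and to 133.4 and 20.7 CPM with D1320A, mostly miR-155. The endothelial miR-126 stood at 437 and 60.1 CPM with hsDicer against 0.331 and 0 CPM. The part of other cell types in the results was not tested.

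The question was what is left of each arm when the IIIA domain carries D1320A. The 3p arms were nearly all gone while a share of the 5p reads was kept. Reads of 18 to 26 nt on 3p arms summed to 192534 and 83985 CPM with hsDicer and to 1231 and 745 CPM with D1320A, which is 0.640% and 0.887% of the hsDicer libraries. KO cells held 4773 and 1004 CPM of 3p reads, so the D1320A libraries fall within or below the range of the background. The upper end of that range is KO replicate 1, with 49305 3p reads. Of these, miR-22-3p made up 29646 and miR-20a-3p 16233, against 7436 and 36 in KO replicate 2. Reads on 5p arms summed to 188250 and 60186 CPM with hsDicer and to 44824 and 20887 CPM with D1320A, against 10667 and 1928 CPM in KO. The D1320A libraries were lower than both hsDicer libraries and higher than both KO libraries.

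The 5p arms made up 49.4% and 41.7% of miRNA reads with hsDicer, a mean of 45.6 ± 5.44% (SD, n = 2). With D1320A they made up 97.3% and 96.6%, a mean of 96.9 ± 0.545% (SD, n = 2). The groups do not overlap, and the exact two-sided permutation p is 0.333, the smallest that 2 libraries against 2 can give. KO libraries stood between them, at 69.1% and 65.8%.

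**Figure D1:**
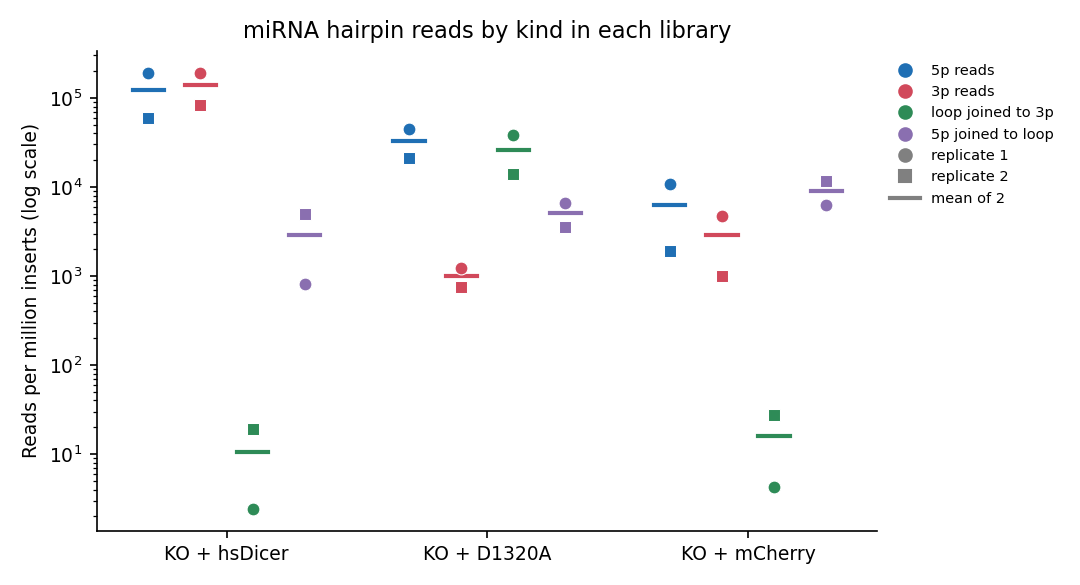
CPM (log axis) of 4 kinds of read in the 2 libraries of human Dicer, D1320A and KO, as circles (replicate 1) and squares (replicate 2) with a bar at their mean. With D1320A the 3p reads stand at 1231 and 745 CPM, below the reads that join loop and 3p arm, which stand at 38204 and 13845 CPM against 2.43 and 18.96 CPM with human Dicer.

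Arm by arm, 540 arms were tested with edgeR's quasi-likelihood test over all 16 libraries, with Benjamini-Hochberg adjustment. At an adjusted p under 0.05, 11 arms fell with D1320A, 2.04% of those tested, and none rose, with 39 arms at an unadjusted p under 0.05 in either direction. The 11 were 10 of 262 3p arms (3.82%) and 1 of 278 5p arms (0.36%). DESeq2 called 26 arms lower and 10 higher. Its size factors moved the log2 change of the median arm up by 2.15, so whether a 5p arm stands below hsDicer can depend on the scaling. Among arms with 10 CPM or more with hsDicer, the median log2 change was -1.64 for 100 5p arms and -6.97 for 69 3p arms by library size, and 1.20 and -4.36 by DESeq2. The gap between these medians was 5.33 and 5.55.

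miR-22-3p, a miRNA abundant in fibroblasts, was the most abundant arm, with 108798 and 40472 CPM with hsDicer. It stood at 235 and 135 CPM with D1320A and at 2870 and 466 CPM in KO. Both D1320A libraries lay below both hsDicer and both KO libraries. It fell by 8.65 on the log2 scale with an SE of 0.81 (adjusted p = 2.49e-23, edgeR).

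The miR-29 family represses mRNAs of collagens and other matrix proteins. miR-29b-3p had 40354 and 23678 CPM with hsDicer, 99.9 and 36.9 CPM with D1320A and 124.3 and 219.4 CPM in KO. It fell by 8.87 on the log2 scale (SE 1.13, adjusted p = 1.61e-12, edgeR). Its relative miR-29a-3p went from 4784 and 977 CPM to 65.1 and 41.1 CPM and fell by 5.76 (SE 1.67, adjusted p = 0.0323, edgeR). The D1320A values of miR-29a-3p, counted by side of the hairpin, lay above both KO libraries, at 24.9 and 10.2 CPM, unlike those of miR-29b-3p. Only 14.9% and 2.40% of these miR-29a-3p reads with D1320A began at the usual first base, against 95.5% and 99.8% for miR-29b-3p. Whether miR-29a-3p with its usual start stood above KO was not tested. miR-29c-3p, the third member, had 2.36 and 9.21 CPM with hsDicer and 0 and 0.0821 CPM with D1320A and did not pass.

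miR-23, miR-27 and miR-24 are made together from a pair of clusters. miR-24-3p had 6009 and 9609 CPM with hsDicer, 30.7 and 20.3 CPM with D1320A and 17.5 and 82.9 CPM in KO. It fell by 8.26 on the log2 scale (SE 1.56, adjusted p = 2.45e-05, edgeR), and its D1320A values lie within the KO range. miR-27b-3p had 2251 and 204 CPM with hsDicer and 0.530 and 0.329 CPM with D1320A, and fell by 11.45 (SE 3.21, adjusted p = 0.0244, edgeR). miR-22-3p, miR-29b-3p and miR-24-3p were the arms that passed under each of the 14 alternatives run, leaving out any 1 of the 4 libraries included.

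The other 6 called arms did not pass when hsDicer replicate 1, D1320A replicate 1 or D1320A replicate 2 was left out, and of these only miR-423-3p passed under TMM scaling. The same losses hold for miR-29a-3p and miR-27b-3p, and miR-140-3p, miR-214-3p and miR-29a-3p also did not pass in a fit of the 4 libraries alone. miR-378a-3p had 3824 and 174 CPM with hsDicer against 1.99 and 0.0821 CPM. miR-423-3p had 3365 and 524 CPM against 4.37 and 0.821 CPM. miR-143-3p, a miRNA of smooth muscle and mesenchymal cells, had 2470 and 430 CPM against 2.78 and 8.79 CPM. The groups do not overlap in any of the 3, and the adjusted p-values (edgeR) lie between 0.0115 and 0.0156.

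miR-214-3p, made from the Dnm3os transcript, had 1399 and 467 CPM with hsDicer against 3.18 and 0.493 CPM with D1320A. miR-140-3p, from a hairpin best known in cartilage, had 1288 and 345 CPM against 12.9 and 0.493 CPM. Both fell (adjusted p = 0.0323 and 0.0379, edgeR). The 5p arm that passed, miR-21a-5p, is abundant in fibroblasts. It had 56011 and 14247 CPM with hsDicer, 5038 and 2964 CPM with D1320A and 3274 and 817 CPM in KO. Its change of -3.13 on the log2 scale (SE 0.84, adjusted p = 0.0156, edgeR) was a fraction of that of the 3p arms, and it ended under DESeq2, at a log2 change of -0.14. D1320A replicate 2, at 2964 CPM, lay below KO replicate 1.

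**Figure D2:**
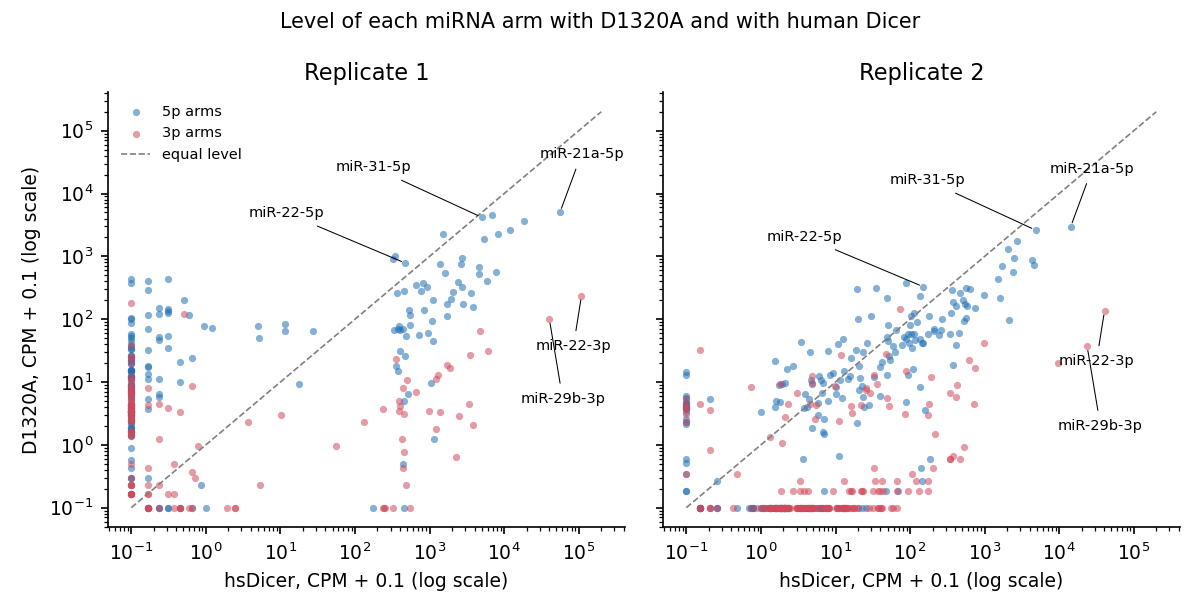
Level of each arm with human Dicer (horizontal) and with D1320A (vertical) in replicate 1 (left) and replicate 2 (right), in CPM with a small constant added, on log axes, with 5p arms in blue and 3p arms in red. The abundant 3p arms such as miR-22-3p lie far below the dashed line of equal level, while miR-31-5p and miR-22-5p lie near or above it.

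Of the arms with 10 CPM or more in both hsDicer libraries, 31 of 31 3p arms had both D1320A libraries below both hsDicer libraries, and 29 of the 31 were under 5% of their hsDicer mean. Of 60 5p arms chosen in the same way, 38 lay below, 2 above, and 6 were under 5%. Over all 169 arms with a mean of 10 CPM or more the share below was 46.7%. Arms chosen by their hsDicer level had more room to be lower, so these counts are a description with no test.

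The 12 most abundant miRNAs show the contrast within one hairpin. miR-22-5p, the minor arm of Mir22, had 473 and 150 CPM with hsDicer and 781 and 328 CPM with D1320A, where its 3p partner was nearly gone. The ranges overlap, and the log2 change of 0.83 has an SE of 2.36. miR-24-5p had 1513 and 2058 CPM with hsDicer and 2240 and 1303 CPM with D1320A, again an overlap, with 7.94 and 10.5 CPM in KO. These minor arms were kept at a level far above KO while the major arm of the same hairpin fell.

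Among miRNAs whose 5p arm is the major one, miR-31-5p had 4984 and 4816 CPM with hsDicer and 4193 and 2620 CPM with D1320A. miR-99b-5p had 6785 and 2740 CPM against 4479 and 1770 CPM. The groups do not overlap for miR-31-5p and overlap for miR-99b-5p, and neither passed (adjusted p = 1 and 0.996, edgeR). The let-7 miRNAs repress growth genes and are typical of differentiated cells. let-7c-5p had 18675 and 4336 CPM with hsDicer against 3672 and 881 CPM, let-7i-5p 11882 and 2474 CPM against 2599 and 927 CPM, and let-7b-5p 8385 and 1734 CPM against 2248 and 699 CPM. Replicate 1 was higher than replicate 2 in both groups for all 3, and the groups overlap for let-7i-5p and let-7b-5p. let-7d-3p had 3508 and 621 CPM against 26.4 and 22.4 CPM and let-7d-5p 2708 and 560 CPM against 321 and 104 CPM, so the groups do not overlap on either arm, with 13.7 CPM or less of the 3p arm in KO. miR-96-5p had 5287 and 4531 CPM against 1875 and 740 CPM. miR-125b-5p, common in mesenchymal cells, had 7823 and 1624 CPM against 566 and 218 CPM, a log2 change of -3.59 that did not pass (adjusted p = 0.183, edgeR).

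The ratio of 5p to 3p reads compares the arms within a library and is free of its scaling. It was tested for 147 miRNAs as the interaction of arm and group over the 4 libraries, and 1 passed (0.68%), with 11 at an unadjusted p under 0.05. For miR-22, 5p reads made up 0.433% and 0.370% of the reads with hsDicer and 76.8% and 70.8% with D1320A, against 0.141% and 1.02% in KO. The D1320A shares rest on 11790 and 3996 5p reads and 3556 and 1646 3p reads. Its ratio rose by 9.46 on the log2 scale (SE 1.48, adjusted p = 0.0466, edgeR). The call was lost without hsDicer replicate 1, hsDicer replicate 2 or D1320A replicate 1, and also with limma, with all 16 libraries, with 100 reads on each arm and with a replicate block (0 called in each). Of the 147 miRNAs, 108 had a higher ratio with D1320A, with a median change of 5.05. In 70 (47.6%) both D1320A libraries were above both hsDicer libraries, and in 11 both were below.

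There were 18 miRNAs with more 3p than 5p reads in both hsDicer libraries, and 15 of them had more 5p than 3p reads in both D1320A libraries. Those 18 were chosen by their hsDicer ratio, so the count has no test. Shares of 5p reads went from 20.1% and 17.6% to 98.7% and 98.5% for miR-24, from 16.4% and 17.8% to 98.7% and 99.3% for miR-423, and from 0.250% and 2.05% to 98.3% and 98.2% for miR-148a. The exceptions were miR-29b, at 34.7% and 32.5% with D1320A, miR-320, at 0 and 0, and miR-143, at 73.8% and 0. The miR-29b share was 0 and 0.0879% with hsDicer, so it too had a higher 5p share. The opposite turn was seen for miR-744, named after its values were seen. Its 5p share was 100% in both hsDicer libraries and 49.7% and 4.35% with D1320A, on 95 and 44 reads of the 3p arm (adjusted p = 0.438, edgeR).

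The next question was which hairpins kept their 5p arm. For 100 5p arms with a mean of 10 CPM or more with hsDicer, the log2 ratio of the mean CPM was called kept above -1, lost below -3 and intermediate between. On that scale 43 were kept, 34 intermediate and 23 lost. The classes are by library size and were not redone with the scaling of DESeq2. That scaling moved the median log2 change of these 100 arms from -1.64 to 1.20, so the class of an arm can depend on it. Only 28 of the 100 fell in the same class in both replicates, and 28 of the 43 kept arms had under 1 CPM in hsDicer replicate 1. With 10 CPM or more in both hsDicer libraries the counts were 12 kept, 28 intermediate and 20 lost of 60, of which 8, 13 and 7 had the same class in both replicates. At the edges, miR-324-5p (-0.93) lay just inside kept and miR-15b-5p (-1.003) just outside, and miR-17-5p (-3.01) lay just inside lost and miR-183-5p (-2.98) just outside.

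Of the most kept arms with 100 CPM or more, miR-27a-5p had 323 and 87.5 CPM with hsDicer and 893 and 376 CPM with D1320A. miR-151-5p, from an intron of Ptk2, had 342 and 639 CPM against 1030 and 299 CPM. miR-149-5p had 369 and 64.5 CPM against 265 and 66.4 CPM. In replicate 1 the miR-27a-5p and miR-151-5p levels were higher with D1320A, but only the miR-27a-5p groups do not overlap. The most kept arms also included miR-22-5p and miR-24-5p given above. The other 3 had almost no reads in hsDicer replicate 1. miR-140-5p had 0.416 and 368 CPM with hsDicer against 202 and 290 CPM, miR-196b-5p 0.139 and 212 CPM against 150 and 68.8 CPM, and miR-99a-5p 0 and 547 CPM against 375 and 172 CPM. In replicate 2, where these were counted, all 3 were lower with D1320A.

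Minor 5p arms of other hairpins that were low with hsDicer were high with D1320A. These were named after their values were seen. miR-365-5p had 0 and 34.6 CPM with hsDicer against 443 and 319 CPM, miR-23a-5p 0.0694 and 48.2 CPM against 399 and 218 CPM, and miR-29a-5p 0.0694 and 30.1 CPM against 289 and 113 CPM. Both D1320A libraries lay above both hsDicer libraries, and KO held at most 7.08 CPM of any of the 3. None passed the test (adjusted p = 0.871 for each, edgeR).

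The most lost 5p arms had few or no reads left with D1320A. miR-340-5p had 457 and 25.3 CPM with hsDicer and no read in either D1320A library, at least 1934-fold lower over the pooled reads, against a floor of 3 reads over both D1320A libraries. miR-484-5p had 438 and 138 CPM against 0.397 and 0.329 CPM. miR-191-5p, from a hairpin in most cell types, had 1047 and 185 CPM against 9.40 and 0.493 CPM. The groups do not overlap for any of the 3, and none passed (the lowest adjusted p is 0.284 for miR-340-5p and miR-484-5p, edgeR).

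miR-744-5p had 519 and 142.3 CPM with hsDicer against 6.22 and 0.164 CPM with D1320A, and miR-450-5p 1135 and 7.93 CPM against 1.13 and 4.93 CPM. let-7g-5p had 1098 and 136 CPM against 44.1 and 8.29 CPM, and miR-30e-5p 3796 and 347 CPM against 156 and 57.1 CPM. A lost 5p arm could stand beside joined reads of its hairpin. miR-145a-5p had 449 and 47.3 CPM against 4.97 and 0.0821 CPM, yet its hairpin gave 56.5 and 13.4 CPM of reads that start at the loop and run through the 3p arm, with none in hsDicer. Mir340 gave none, and Mir744 gave 1.19 and 0.739 CPM.

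**Figure D3:**
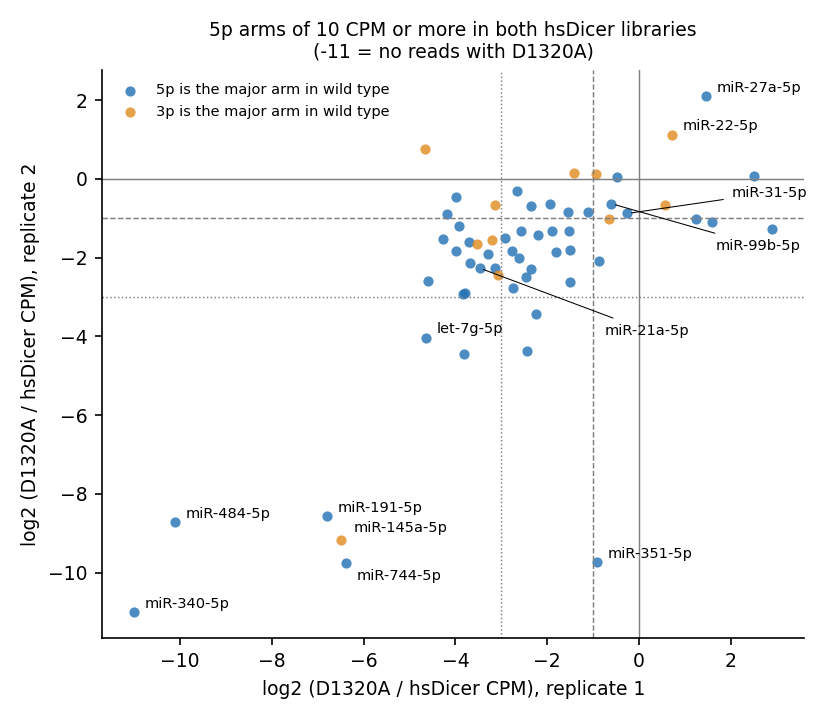
log2 ratio of CPM, D1320A over human Dicer, in replicate 1 (horizontal) and replicate 2 (vertical) for the 60 5p arms with 10 CPM or more in both human Dicer libraries, coloured by the major arm in WT. Grey lines mark no change (solid), the limit of kept (dashed) and the limit of lost (dotted). miR-27a-5p and miR-22-5p are above 0 in both replicates, and miR-340-5p, with no read, is drawn at the lower edge.

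Features of the hairpin that the classes did not use were set beside them. The median loop was 16 nt for kept, 17.5 nt for intermediate and 17 nt for lost arms. The 5p arm began with U in 44.2% of kept, 67.6% of intermediate and 77.3% of lost arms, and in 50% of 12 kept and 75% of 20 lost arms with 10 CPM or more in both hsDicer libraries. By the major arm in WT, the median log2 ratio among those 60 was -2.47 for the 49 with a major 5p arm and -2.56 for the 11 with a major 3p arm. The replicates went opposite ways, with -2.56 and -3.07 in replicate 1 and -1.83 and -0.66 in replicate 2. Over all 100 arms the medians were -1.83 for a major 5p arm and -0.73 for a major 3p arm. These are descriptions with no test.

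Reads that start at the loop and run on into the 3p arm were the main product of the 3p side with D1320A. A joined read had to start within 2 nt of the base after the usual 5p end, run at least 5 nt into the 3p arm and match 1 hairpin only. Over 153 hairpins with usual ends on both arms, D1320A gave 577034 and 168577 such reads and hsDicer 35 and 356, or 38204 and 13845 CPM against 2.43 and 18.96 CPM. KO gave 44 and 442 reads, WT 20 and 405, and the IIIB change D1709A 313 and 529. Joined reads made up 97.4% and 95.6% of joined and mature 3p reads with D1320A, a mean of 96.5 ± 1.25% (SD, n = 2), and 0.00128% and 0.0227% with hsDicer. The groups do not overlap (exact two-sided permutation p = 0.333).

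The opposite product, a 5p arm that runs on into the loop, did not separate the groups. With hsDicer it reached 823 and 4981 CPM, and with D1320A 6644 and 3534 CPM (exact two-sided permutation p = 0.667), with 6221 and 11613 CPM in KO. Free loops were rare, with no read in 1 library of each group.

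Hairpin by hairpin, 78 of 153 (51%) had both D1320A libraries above both hsDicer libraries for joined reads, against 12 of 153 (7.84%) for the 5p arm with its loop. In the edgeR fit over all 16 libraries, 0 of 242 features passed at an adjusted p under 0.05, with 62 at an unadjusted p under 0.05, all of them joined to the 3p arm, and DESeq2 and TMM scaling also called 0. In the edgeR fit of the 4 libraries alone, 50 features (22.4% of those tested) passed, all of them loop joined to 3p and all higher with D1320A. Adjusted p-values of hairpins below are from that fit.

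In 53 hairpins joined reads reached 10 CPM in each D1320A library, and no hairpin did so in either hsDicer library. All 53 lay above both KO libraries and 39 had no joined read with hsDicer. The share joined had a median of 98.6% and 97.7% and ranged from 57.9% to 100% and from 37.2% to 100%. At the other end, 47 of the 153 hairpins had no joined read in either D1320A library. The loop was 15 nt long at the median of the 53 and 16 nt in the others, and the stretch from loop start to 3p end 38 nt and 39 nt. Their joined reads correlated between the D1320A replicates (r = 0.880 and rho = 0.809 on log10 reads, n = 53 hairpins, which share libraries and depth), and less with the 5p reads of the same hairpin (r = 0.504 and 0.471).

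Mir31 held 66.5% and 69.1% of all joined reads. It had 383859 and 116452 with D1320A, or 25414 and 9564 CPM, while hsDicer gave 1.94 and 6.82 CPM and KO 3.48 and 4.63 CPM. That is 3902-fold higher than with hsDicer over the pooled reads (adjusted p = 0.0125, edgeR, 4 libraries). Joined reads outnumbered miR-31-5p reads, at 6.06 and 3.65 joined reads to each. Mature miR-31-3p had 0 and 72.3 CPM with hsDicer and 183 and 142.6 CPM with D1320A, so here the 3p arm was higher in both D1320A libraries, with no pass of the test (adjusted p = 0.878, edgeR).

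Mir16-1, in an exon of Dleu2 on chromosome 14 (61631880 to 61631972, minus strand), came next with 41355 and 12423 joined reads against 1 and 1 with hsDicer. Reads of its 5p arm mostly match another hairpin as well and are left out of the plot along the hairpin. Mir30a had 13083 and 2748 joined reads against 0 and 38, and Mirlet7i, whose loop is 34 nt, 11706 and 3810 against none, at least 6293-fold higher against a floor of 3 reads over both hsDicer libraries. The stretch from loop start to 3p end of Mirlet7i is 56 nt, longer than the reads of either replicate, so its 3' end was not seen.

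Mir140, in an exon of Wwp2, had 8119 and 2236 joined reads with D1320A and none with hsDicer, at least 4200-fold higher. Mir151 had 7658 and 2606 against none, at least 4163-fold higher. Mir28a in Lpp had 6013 and 777 against none and Mir15b in Smc4 4671 and 1609 against none, at least 2754-fold and 2547-fold higher. All 4 had adjusted p-values of at most 0.00826 in the 4-library edgeR fit. Mir186 in Zranb2 had 8108 and 1084 joined reads against 1 and 0, and Mir671 in Chpf2 4917 and 2814 against 1 and 0. Mirlet7a-1 had 6928 and 490 against 0 and 24, but its usual WT 3p start lies more than 2 nt from that of RefSeq, and with the RefSeq ends it had 6110 and 378 against 0 and 0.

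**Figure D4:**
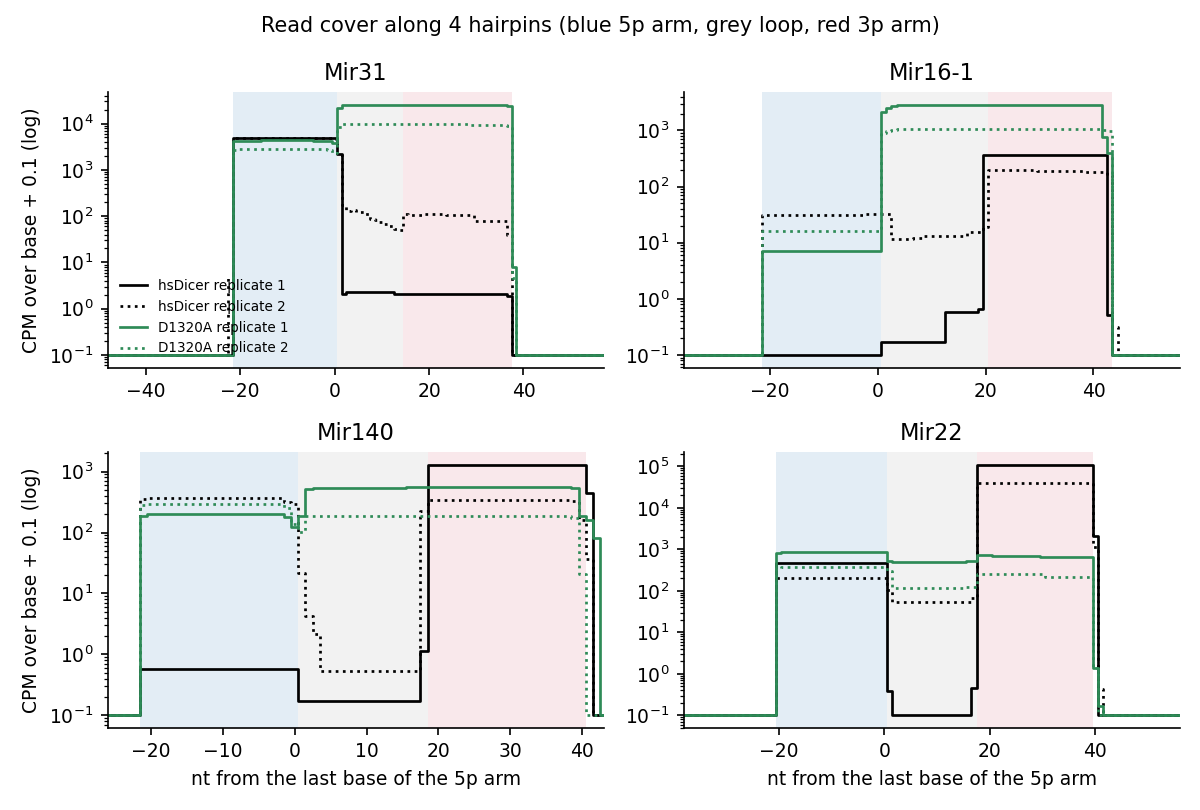
Reads over each base of 4 hairpins (CPM with a small constant added, log axis) by distance in nt from the last base of the 5p arm, for human Dicer (black) and D1320A (green), replicate 1 solid and replicate 2 dotted, with only reads that match 1 hairpin. In Mir31, Mir16-1 and Mir140 the green lines lie above the black lines over nearly all of the loop (grey), which precedes the 3p arm (red). At the last loop base of Mir140 human Dicer replicate 2 lies above D1320A replicate 2, and replicate 1 of Mir16-1 falls at the end of the 3p arm, past its read length. In Mir22 the 3p arm stands above the loop in the D1320A libraries too.

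**Figure D5:**
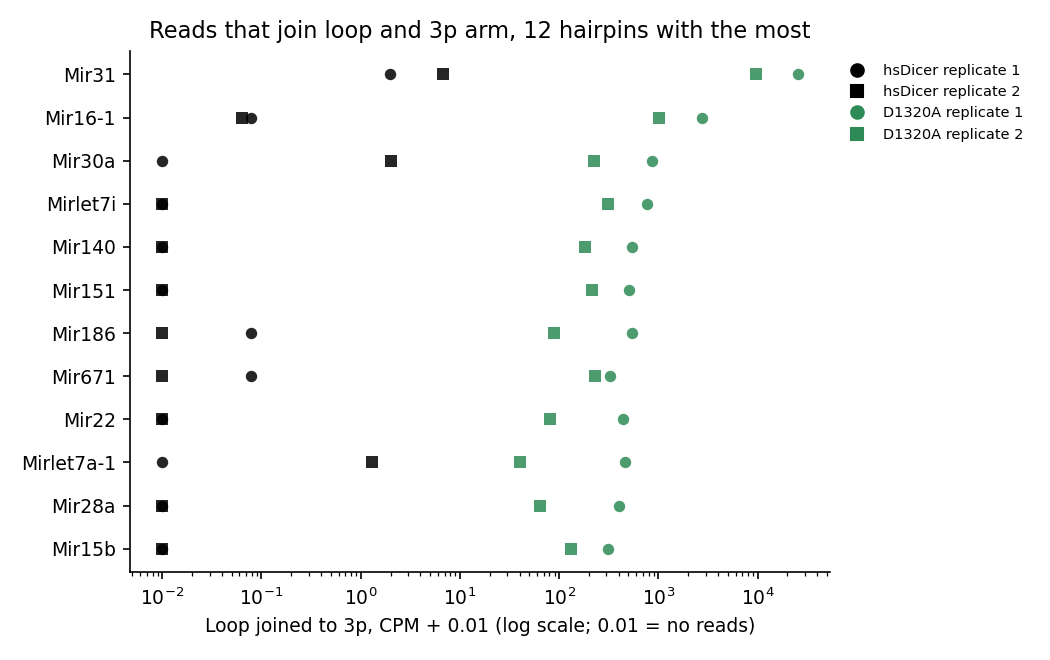
Reads that join loop and 3p arm, in CPM with a small constant added (log axis), for the 12 hairpins with the most, in each of the 4 libraries. All D1320A points (green) lie to the right of all human Dicer points (black) of the same hairpin.

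In a few hairpins the joined reads were a smaller share. Mir22 had 6726 and 977 joined reads with D1320A and none with hsDicer, at least 3124-fold higher, and these were 65.4% and 37.2% of its joined and mature 3p reads. The share was 61.9% and 39.7% for Mir29b-1 and 66.7% and 38.8% for Mir29a, against 99.3% and 98.5% for Mir31. In KO cells miR-22-3p and miR-29b-3p also had free reads, given above, and the part of these in the D1320A libraries was not tested. Joined reads to each 5p read ranged widely, from 0.00899 and 0.00942 for Mir21a to 14.0 and 163 at the top of the 53 hairpins. The value of 163 is that of Mir145a and rests on 1 read of its 5p arm. Mir320, whose precursor is made without Drosha, had 94.5% and 86.8% of its 3p reads joined and no 5p read.

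The ends of the joined reads were set beside the usual ends. Of joined reads with D1320A, 79.4% and 82.0% started at the base after the usual 5p end and 17.2% and 15.0% 1 nt later. Of those with their 3' end seen (87.5% and 97.1%), 85.9% and 86.3% ended at the usual 3p end and 97.3% and 96.7% within 1 nt of it. The start was limited to within 2 nt by the definition, and Mir31 supplies most of these reads, so the shares are a description.

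The 3' ends of the 5p reads were more spread. Over 58 5p arms with 20 reads or more in each library, the median share at the usual end was 89.2% and 78.6% with hsDicer and 75.9% and 72.1% with D1320A, means of 83.9 ± 7.46% and 74.0 ± 2.66% (SD, n = 2). Both D1320A libraries lay below both hsDicer libraries (exact two-sided permutation p = 0.333), and 37 of the 58 arms were lower. Single arms moved both ways. miR-31-5p had 55.4% and 54.96% at the usual end with hsDicer and 86.3% and 80.0% with D1320A, and miR-30a-5p 84.3% and 76.9% against 7.04% and 13.2%, while miR-24-5p had 98.4% or more in all 4.

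The few 3p reads left with D1320A often began at another base. Over 15 3p arms with 20 reads or more in each library, the median share at the usual 5' end was 99.99% and 97.0% with hsDicer and 23.6% and 14.7% with D1320A, and on the mean of the 2 libraries all 15 were lower (exact two-sided permutation p = 0.333). miR-29a-3p had 62.0% and 67.8% at its usual start with hsDicer and 14.9% and 2.40% with D1320A, and miR-222-3p 100% and 95.3% against 4.68% and 3.52%. The 3 arms called under every alternative differed from these. miR-22-3p had 98.8% and 99.4% against 91.2% and 95.4%, miR-29b-3p 100% and 99.8% against 95.5% and 99.8%, and miR-24-3p 92.6% and 99.7% against 89.2% and 100%. Most of their residual reads began at the usual base.

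The 8 3p arms with the most reads left with D1320A were miR-22, miR-31, miR-5121, miR-29b, miR-29a, miR-365, miR-24 and let-7d. Reads were counted by their side of the hairpin, so short reads that start in the loop may be among them. miR-5121-3p had 0.416 and 11.9 CPM with hsDicer and 120 and 26.5 CPM with D1320A, and miR-365-3p 0 and 48.1 CPM against 38.6 and 28.1 CPM. Neither passed (adjusted p = 0.871 and 1, edgeR), and only the miR-5121-3p groups do not overlap. Over 3p arms with 100 CPM or more with hsDicer, the median left was 0.340% (35 arms) and 0.234% (25 arms) with D1320A, against 0.308% and 1.74% in KO. For 5p arms it was 15.4% (60 arms) and 32.1% (56 arms), against 0.362% and 1.88% in KO.

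Families were listed by name, and their medians are by library size. The scaling of DESeq2 moved the median arm up by 2.15, so 5p and 3p medians would both stand higher by it. The sign of a small change can depend on this. Of the let-7 family, which had 9 members counted, 0 of 9 5p and 0 of 9 3p arms passed, and the median log2 change was -2.34 on the 5p side and -1.09 on the 3p side, where 6 of 9 were lower. The medians over all arms tested were 0 for 278 5p arms and -5.14 for 262 3p arms. The miR-17-92 group, with members known for promoting proliferation, had 0 of 9 arms passing on either side, with medians of 0.70 (5p) and -5.13 (3p). In it miR-92-3p had 1898 and 723 CPM with hsDicer against 16.4 and 4.43 CPM, and miR-17-5p 1063 and 207 CPM against 92.1 and 65.6 CPM. The miR-30 family, on 5p arms, had none of 5 pass, with a median of -2.41, and miR-30d-5p had 2414 and 988 CPM against 393 and 247 CPM.

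In the miR-29 family 2 of 3 3p arms passed as lower and none of 3 5p arms passed, with medians of -6.90 and 2.51. In the miR-23, miR-27 and miR-24 group 2 of 5 3p arms passed as lower, with a median of -8.26. None of its 5 5p arms passed, with a median of -0.01. A list of 24 names holds miRNAs typical of fibroblasts and mesenchymal cells. In it 7 of 20 3p arms passed as lower (median -6.53) and 1 of 22 5p arms (median -0.57). Over all arms 3.82% of 3p and 0.36% of 5p arms passed as lower. These shares depend on level. All 10 called 3p arms were among the 31 with 10 CPM or more in both hsDicer libraries. A mean of 10 CPM or more with hsDicer was reached by 15 of the 20 3p arms of the mesenchymal list, against 69 of 280 counted over all. By sign alone, 3 of 3, 5 of 5 and 15 of 20 3p arms of these lists were lower, and 173 of 262 over all. On the 5p side it was 0 of 3, 3 of 5 and 13 of 22, and 120 of 278 over all. The p53 targets miR-34a, miR-34b and miR-34c were rare, at no more than 27.8 CPM on any arm in the 4 libraries. The list of hairpins with an unusual first step, made without Drosha or, for miR-451a, without Dicer, had none of 6 5p and none of 4 3p arms pass. miR-320-3p had 993 and 172 CPM with hsDicer against 3.38 and 2.87 CPM with D1320A (adjusted p = 0.207, edgeR), and miR-451a-5p had no read with hsDicer, 7.08 and 3.78 CPM with D1320A and 0 and 2.82 CPM in KO.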

How the data were processed

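The authors deposited, for each library, a list of read sequences with the count of each as raw counts that were not normalized, judged from their whole-number values. Per the labels' protocols, RNA was extracted with Trizol and 15 to 50 nt was cut from a gel. Reads still carried the 3' adapter named in the labels. Any upstream aligner or genome build was not given in the sources used here. The adapter was removed on 12 matching bases inside a read or 5 or more at its end. Inserts of 15 nt or more made the library size. They were matched exactly and on the sense strand to 1174 mouse hairpins of GENCODE M21 (GRCm38). Reads of 18 to 26 nt went to the arm on their side of the hairpin's midpoint, and reads matching hairpins of several names were left out. Usual ends are the most used WT positions with 10 reads or more. At 12176208 to 18778950 reads a library, 1 read is worth under 0.1 CPM, and precision is set by the 2 libraries a group.

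Arms with 20 reads or more in total were tested with edgeR 4.0.16 (R 4.3.3) by quasi-likelihood over all 16 libraries. The ratio of arms was tested in the 4 libraries. Alternatives were TMM scaling, DESeq2 1.42.0, limma 3.58.1 for the ratio, other filters and read lengths, RefSeq ends, a replicate block and leaving out each library. A library size without adapter products, counting of reads with unmatched 3' bases and the 10 CPM limit in both hsDicer libraries were chosen after seeing the data. The scripts were tested on simulated data. The comparison, its members and the lists were chosen with earlier results of these data known. Named were every called arm, the 12 most abundant miRNAs, the 8 most kept and the 8 most lost 5p arms of 100 CPM or more, the 12 hairpins with the most joined reads, the 8 3p arms with the most reads left, list members of 10 CPM or more, miR-451a, miR-320 and miR-484. Some names outside this rule are marked in the text, while miR-148a, miR-324-5p and miR-183-5p also lie outside it.

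Replicates of the groups share numbers in the labels, which do not say that a number marks a shared batch.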

Additional observations from a re-analysis of the deposited data

Results flagged for a closer look

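Some joined reads of loop and 3p arm carried 1 to 3 bases at their 3' end that do not match the hairpin, and these reads are in none of the comparisons above. They stood at 263 CPM in D1320A replicate 1 and 806 CPM in D1320A replicate 2, against 0 and 9.32 CPM with hsDicer. As a share of joined reads with their 3' end seen, tailed ones included, they were 0.779% and 5.65% with D1320A. With hsDicer the shares were 0 and 33.0%, on 0 and 175 tailed reads. Counting them with the exact reads left the share of joined reads within its spread between replicates.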

How the results depend on the processing

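The count of 11 called arms was 4 under TMM scaling, 36 under DESeq2 (26 lower, 10 higher, 9 shared with the 11) and 21 of 165 with a mean of 10 CPM or more. Leaving out a library gave 3 to 11. It was 3 without hsDicer replicate 1, D1320A replicate 1 or D1320A replicate 2, and all 11 arms stayed lower under the 14 alternatives. The ratio call was lost (0) with limma at a pseudocount of 0.5 or 5, over all 16 libraries and with 100 reads on each arm, and leaving out a library gave 0 to 1. Joined features called were 0 in the 16-library fit, also whichever of the 4 libraries was left out of it, and 50 in the 4-library fit, which was not run with a library left out. The 5p share with D1320A was 94.7% at 15 to 30 nt and 92.1% with miRNAs weighted equally (hsDicer 66.5%). The share of joined reads with D1320A was 91.8% without Mir31. Kept 5p arms were 14 in replicate 1 alone, 13 at 100 CPM or more and 12 with 10 CPM or more in both hsDicer libraries. Lost 5p arms were 13 under TMM scaling. The 3p reads left were 0.287% as the median over arms. No other count or share moved beyond its limit, and no called value changed sign. The cause of these shifts was not tested.

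With a replicate block, 18 arms were called lower (15 of them 3p), 0 ratios and 1 joined feature. Same-numbered replicates of hsDicer and D1320A deviated together with a correlation of 0.175 over 169 arms, and pairs of groups ranged from 0.0782 to 0.479, so the labels give only a shared number.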
